A study of Mus musculus with 3 samples.

Results

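Among the genes that inflammation can induce are Il1a, Il1b, Il6, Il12a, Il15, Il18, Il33, Tnf, Lif and Csf1, which encode secreted cytokines or a cytokine subunit. These 10 genes, of 22350 protein-coding genes of GENCODE M1 on chromosomes 1 to 19 and X, were chosen by name. For each of them, every H3K4me1 enriched region was collected that overlapped the gene or lay within 50 kb of any of its transcription start sites (TSS). This gave 52 distinct regions of the 65709 in the list, or 0.0791%. A gene was called covered when a region lay over at least 1 of its TSS, flanked when the nearest region edge was within 2 kb of one, and bare otherwise.

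The regions come from islets of CD1 mice (named ICR in the study's methods), aged 8 to 12 weeks by the labels and within a narrower range by the methods, cultured for 4 days with IFNγ (1.6 ng/ml), IL-1β (0.25 ng/ml) and TNFα (0.16 ng/ml). H3K4me1 was recovered by ChIP-seq, and the DNA of 4 ChIP experiments on islets pooled from several mice was sequenced as 1 library. Neither the untreated islets' H3K4me1 regions nor RNA values of either condition were analysed here, so what follows describes cytokine treated islets alone, and no region can be called gained or lost. The list gives positions on a grid of 200 bp with no count, height or score, the depth is unknown, and with 1 library no value has a replicate error and none was tested. Where no region is listed, H3K4me1 was not called at this depth and threshold, which is not the same as absent. Islets are mixed tissue, and a mark carried by few cells cannot be told apart from a weak mark in many.

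H3K4me1 is deposited on nucleosomes at active and poised enhancers and promoters. At promoters with strong H3K4me3 it often lies to the sides of the start site, because the same lysine carries 3 methyl groups there. The interleukin 1 family, TNF and the interleukin 6 family reach their target genes through NF-κB, AP-1 and STAT factors, and many cytokine genes are themselves targets of these factors, with enhancers that open on stimulation in macrophages and other cells. IFNγ acts in part through interferon regulatory factors, which bind the ISRE.

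In cytokine treated islets 5 of the 10 genes had a covered TSS (Il1b, Il15, Il33, Lif and Csf1), 1 was flanked (Il18) and 4 were bare (Il1a, Il6, Il12a and Tnf). Of all protein-coding genes 39.1% were covered, 22.9% flanked and 38.0% bare, and the shares of covered and bare genes among the 10, 50% and 40%, were near these. Taking the most upstream TSS of each gene alone (its first TSS), 3 were covered (Il15, Il33 and Csf1), 2 flanked (Il18 and Lif) and 5 bare, and the covered share over all coding genes was 31.1%. Il1b and Lif were therefore covered only at a later TSS, as were 20.5% of all covered coding genes (1797). Il6 was the only one of the 10 genes without any region under the 50 kb rule, which held for 17.7% of coding genes.

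**Figure D1:**
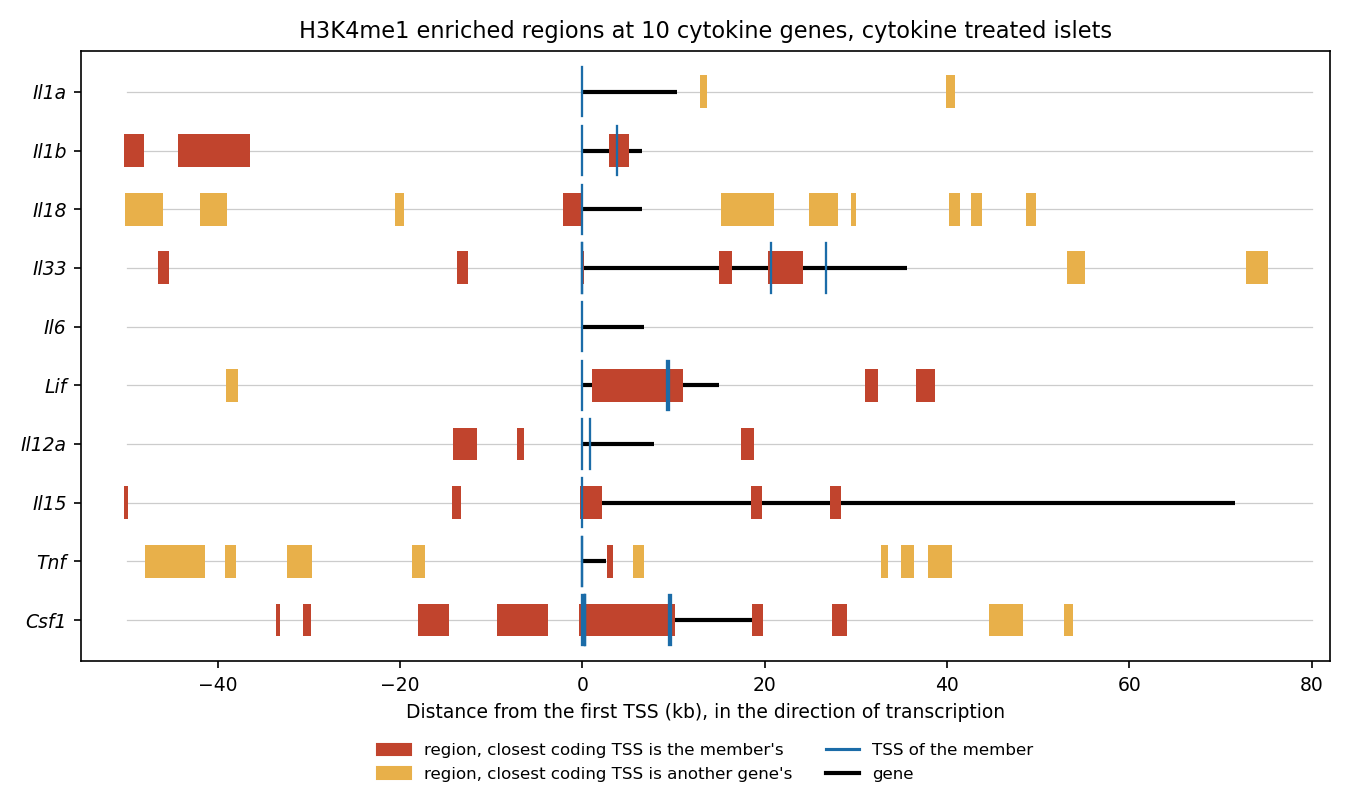
H3K4me1 enriched regions (boxes) at the 10 cytokine genes, by distance in kb from the first TSS in the direction of transcription; black bars are the genes, blue lines their TSS, and box colours show whether the closest protein-coding TSS to the region's midpoint is the gene's own. Il6 has 0 regions, all regions of Il1a, Il12a, Il18 and Tnf lie outside the gene, and most regions at Il18 and Tnf are closer to another gene. The 400 bp region over the first TSS of Il33 is hidden by its TSS line.

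The start site sequences below are shown because their genes span the range from covered to bare. They were read from mm9 on the strand of each gene, from 250 bases before to 20 bases from the TSS onward, and capitals mark matches to the motifs searched.
Il15, covered, chr8:84927102-84927371, minus strand: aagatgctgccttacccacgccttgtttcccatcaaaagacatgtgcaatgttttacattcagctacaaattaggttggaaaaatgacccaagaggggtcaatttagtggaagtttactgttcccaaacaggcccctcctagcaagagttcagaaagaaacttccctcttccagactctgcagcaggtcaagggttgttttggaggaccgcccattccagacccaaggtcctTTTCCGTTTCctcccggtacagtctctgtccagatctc
Csf1, covered, chr3:107563368-107563637, minus strand: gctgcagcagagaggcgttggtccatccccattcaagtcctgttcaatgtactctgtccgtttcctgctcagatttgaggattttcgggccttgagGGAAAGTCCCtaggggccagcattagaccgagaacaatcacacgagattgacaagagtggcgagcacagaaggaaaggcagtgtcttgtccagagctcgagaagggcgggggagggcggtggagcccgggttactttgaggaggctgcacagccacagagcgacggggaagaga
Lif, first TSS flanked, chr11:4157310-4157579, plus strand: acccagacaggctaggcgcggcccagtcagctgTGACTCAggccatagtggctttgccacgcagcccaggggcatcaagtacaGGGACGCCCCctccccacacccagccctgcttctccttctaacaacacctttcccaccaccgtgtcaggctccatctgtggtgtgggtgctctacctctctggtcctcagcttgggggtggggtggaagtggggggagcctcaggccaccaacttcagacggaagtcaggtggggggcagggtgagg
Tnf, bare, chr17:35338933-35339202, minus strand: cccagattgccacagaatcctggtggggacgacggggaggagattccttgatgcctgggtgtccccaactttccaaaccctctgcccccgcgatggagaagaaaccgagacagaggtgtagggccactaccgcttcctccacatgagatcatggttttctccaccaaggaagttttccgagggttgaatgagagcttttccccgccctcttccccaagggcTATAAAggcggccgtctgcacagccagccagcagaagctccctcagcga
Il6, bare, chr5:30339451-30339720, plus strand: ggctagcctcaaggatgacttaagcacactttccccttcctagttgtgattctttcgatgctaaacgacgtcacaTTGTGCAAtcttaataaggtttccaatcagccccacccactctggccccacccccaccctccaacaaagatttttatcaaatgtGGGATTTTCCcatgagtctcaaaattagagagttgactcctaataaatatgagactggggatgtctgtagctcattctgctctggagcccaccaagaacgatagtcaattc
Il18 at its RefSeq start, covered, chr9:50362555-50362824, plus strand: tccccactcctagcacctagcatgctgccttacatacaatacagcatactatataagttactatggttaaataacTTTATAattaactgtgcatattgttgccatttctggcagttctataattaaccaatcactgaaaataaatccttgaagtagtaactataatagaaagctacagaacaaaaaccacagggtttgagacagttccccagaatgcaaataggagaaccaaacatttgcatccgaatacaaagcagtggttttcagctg
The capitals are an ISRE in Il15, an NF-κB consensus in Csf1, an AP-1 motif and then an NF-κB consensus in Lif, a TATA box sequence in Tnf, a C/EBP motif and then an NF-κB consensus in Il6, and TATAAA on the opposite strand in Il18. The Il18 window lies at the start site of RefSeq, for the reason given with that gene.

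Csf1 and Lif had the widest single regions of the 10 genes. Csf1 encodes M-CSF, on which macrophages depend for survival, and spans positions 107543966 to 107563387 of the minus strand of chromosome 3. A region of 10600 bp, from 107553201 to 107563800, covered all 6 of its TSS, from 413 bp upstream of the first TSS to 10186 bp into the gene. Regions covered 56.8% of the gene body. Of its 9 regions, 7 had their closest TSS at Csf1, and no other coding gene had a TSS within 50 kb. The next regions upstream ran from 107567201 to 107572800 and from 107578001 to 107581400, outside annotated genes, the nearer of them 3814 bp from the first TSS. Another region, of 1200 bp, overlapped the 3′ end of the gene. Csf1 had the largest covered share of its window among the 10 genes, 25.9%, a level reached by 8.43% of coding genes.

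Lif, a cytokine of the interleukin 6 family that signals through gp130 and Lifr, spans positions 4157560 to 4172517 of the plus strand of chromosome 11. Its region of 10000 bp, from 4158601 to 4168600, left the first TSS uncovered by 1041 bp and lay over the other 2, at 4166799 (a processed transcript) and 4167098 (protein-coding). It overlapped coding sequence and spanned 66.9% of the gene. Of the other 3 regions, those from 4188601 to 4190000 and from 4194201 to 4196200 lay past the gene outside annotated genes, and the one from 4118401 to 4119800 overlapped Gatsl3. Osm, which encodes oncostatin M, a cytokine of the same family, is a neighbour of Lif and was bare, with the nearest region 16623 bp from its TSS. A TSS under a region of at least 10 kb was thus found for 2 of the 10 genes, against 2.49% of all coding genes (557). This width was chosen after the values of Lif and Csf1 had been seen, and nothing is read from the count.

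Il15 encodes a growth factor of T and NK cells that is presented on the cell surface by Il15ra. It spans positions 84855536 to 84927121 of the minus strand of chromosome 8, with 1 TSS. A region of 2400 bp, from 84925001 to 84927400, covered this TSS, reaching 279 bp upstream and 2120 bp downstream, where it overlapped an annotated UTR. A pair of intronic regions of 1200 bp each began 18521 bp or more downstream, and regions of 1000 and 400 bp lay upstream, the first at 13280 bp, outside annotated genes. No other coding gene had a TSS within 50 kb, and for all 5 regions Il15 was the closest coding gene. The covered share of the window was 5.92%, lower than at Csf1, Lif, Il33 or Il1b.

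Il33 encodes an alarmin that is stored in the nucleus and signals through Il1rl1 (ST2). It spans positions 29999604 to 30035194 of the plus strand of chromosome 19. A region of 400 bp, from 29999401 to 29999800, covered the first TSS and the one 1 bp after it. A wider region of 3800 bp, from 30020001 to 30023800, covered the protein-coding TSS at 30020280, from 279 bp upstream to 3520 bp downstream of it, and 1 retained-intron TSS further downstream was not covered. An intronic region of 1400 bp lay between these. Upstream, regions of 1200 bp each lay outside annotated genes, the nearer 12604 bp from the first TSS. In all, Il33 had 7 regions, 5 of them closest to Il33, and 9.79% of its window was covered.

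Il1b encodes IL-1β, 1 of the 3 cytokines that were added to the cultures. It spans positions 129190306 to 129196875 of the minus strand of chromosome 2. Its protein-coding TSS, at 129196875, was not covered. The region of 2200 bp from 129191801 to 129194000 lay inside the gene, 2875 bp downstream of that TSS, and overlapped coding sequence. It covered only the TSS of a processed transcript at 129193087, so that the state of Il1b rests on this internal transcript. A region of 7800 bp, from 129233401 to 129241200, began 36526 bp upstream in sequence without an annotated gene, and one of 2200 bp lay beyond it. No other coding gene had a TSS within 50 kb. The 3 regions covered 11.4% of the window.

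Il18 encodes a cytokine that raises IFNγ production in lymphocytes and is cut to its active form by caspase-1. GENCODE M1 places it at positions 50383378 to 50389942 of the plus strand of chromosome 9. A region of 2000 bp, from 50381201 to 50383200, ended 178 bp before its annotated TSS. That TSS is the first base of the start codon, so the annotated transcript has no 5′ UTR, which was so for 8.51% of coding genes. The RefSeq start of Il18, placed on mm9 by exact match of its promoter sequence, is 20573 bp further upstream, at 50362805. There a region of 1000 bp, from 50362801 to 50363800, covered it, with its edge 4 bp from the start, less than the grid of 200 bp. This region also covered the TSS of the neighbouring gene Bco2. Il18 was thus flanked by the one annotation and covered by the other.

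The window of Il18 held 10 regions, the most of the 10 genes and a number reached by 14.7% of coding genes, and 23.2% of it was covered. It also held the TSS of 7 other coding genes, of which 3 were covered, 3 flanked and 1 bare. Only the region before the annotated TSS had its closest TSS at Il18, whereas 9 were closer to Pts, Bco2, Sdhd, Timm8b, AU019823 or Pih1d2. Regions lay over the TSS of Pts, Bco2 and Pih1d2.

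Tnf showed the same kind of crowded locus with a bare start. It encodes TNFα, also added to the cultures, and spans positions 35336326 to 35338952 of the minus strand of chromosome 17. Neither TSS was covered or flanked. The nearest region, 600 bp from 35335601 to 35336200, began 2749 bp downstream of the closer TSS, 126 bp past the 3′ end of the gene, and it was the only one of 9 with its closest TSS at Tnf. Upstream of the first TSS the nearest region was 17249 bp away. The window was 18.6% covered and held the TSS of 9 other coding genes, 2 of them covered (Prrc2a and Atp6v1g2), 4 flanked and 3 bare. Among them were Ltb, which was flanked with a region from 35332201 to 35333400 overlapping the gene, 630 bp from a TSS, and Lta, which was bare with a region 6096 bp away. These genes encode lymphotoxins of the same family.

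Il12a encodes the p35 subunit shared by IL-12 and IL-35 and spans positions 68494566 to 68502469 of the plus strand of chromosome 3. Its 3 regions, of 2600, 800 and 1400 bp, lay outside annotated genes, the nearest 6366 bp upstream of the first TSS and the only downstream one at 17435 bp. For all of them Il12a was the closest gene, and 4.76% of the window was covered. Il1a encodes IL-1α, an alarmin that acts on the same receptor as IL-1β, and spans positions 129125346 to 129135708 of the minus strand of chromosome 2, next to Ckap2l. Both of its regions, of 1000 and 800 bp, overlapped exons of Ckap2l, 12908 bp or more from the single Il1a TSS, and Il1a was the closest gene of neither. They covered 1.80% of the window.

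Il6 had no region. It encodes interleukin 6, an inflammatory cytokine of many cell types that signals through Il6ra and gp130, and spans positions 30339701 to 30346508 of the plus strand of chromosome 5. The gene falls in a stretch of 296.2 kb without H3K4me1 enrichment, between a region ending at 30102400, which is 237301 bp upstream of the TSS, and one beginning at 30398601, which is 58900 bp downstream. Of 65630 gaps between neighbouring regions 1.63% were as long, against a median of 10600 bp, and 17.3% of coding genes (3873) had a TSS in such a gap. To see whether short reads could be placed there, the share of 32 bp words that occur once in mm9 was counted. It was 96.1% within 2 kb of the Il6 TSS and 91.0% to 99.8% at the other genes. Within 50 kb it was 67.9%, the lowest of the 10 genes, against 77.0% to 97% at the others. The part of this in the missing regions was not tested.

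**Figure D2:**
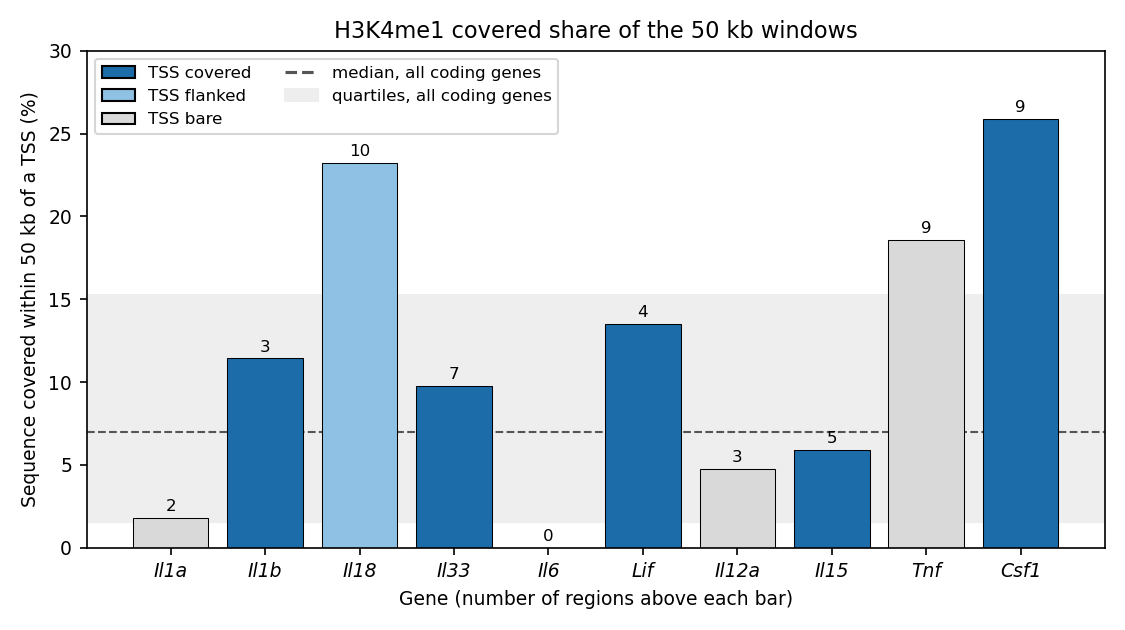
Share of sequence within 50 kb of any TSS that H3K4me1 enriched regions cover (%), with the number of regions above each bar and bars coloured by the state of the TSS; the dashed line and grey band are the median (7.0%) and quartiles (1.58% and 15.2%) of all protein-coding genes. Csf1, Il18 and Tnf lie above the upper quartile, and Tnf, and Il18 by its GENCODE M1 TSS, do so without a covered TSS.

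Set in order, the covered share of the window was 25.9% at Csf1, 23.2% at Il18, 18.6% at Tnf, 13.5% at Lif, 11.4% at Il1b, 9.79% at Il33, 5.92% at Il15, 4.76% at Il12a, 1.80% at Il1a and 0 at Il6. Without replicates no pair of neighbours in this order can be said to differ. The median was 10.6%, against 7.0% over all coding genes, and the median number of regions was 4.5 per gene, against 5 (quartiles 2 and 8). The order does not follow the state of the TSS, since Tnf, and Il18 by its GENCODE M1 TSS, ranked above Il15 without a covered TSS. The regions had a median width of 1400 bp, against 1200 bp for the whole list, and ranged from 400 to 10600 bp. They added up to 122.6 kb.

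Of the 52 regions, 6 lay over a TSS of the gene, 4 elsewhere in it, 21 upstream and 21 downstream. The share outside the gene was 80.8%, against 62.4% of the 119448 pairs of a gene and a region that the same rule gave over all coding genes. Genes were not matched for length in this comparison, and the part of gene length in the difference was not tested. For 28 of the 52 (53.8%) the gene was the one with the closest protein-coding TSS, against 45.1% over all coding genes. Counting TSS of all annotated genes, such as snoRNAs and pseudogenes, 22 regions were closest to the gene and 30 (57.7%) closer to another, against 62.6% over all coding genes, so that this share was near the background. At Csf1, Il33, Il12a and Il15 most regions were closest to the gene by either count. At Il18, Tnf and Il1a, 9 of 10, 8 of 9 and 2 of 2 regions were closer to a neighbour, and 5 regions at Il18 and Tnf covered the TSS of another coding gene.

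Start sequences of the 10 genes were mostly poor in CpG. Around the first TSS (500 bp to each side), the ratio of observed to expected CpG was 0.615 at Csf1 and between 0.153 (Il1b) and 0.343 (Il6) at the other 9 genes. Il18 was taken at its GENCODE M1 TSS, with a ratio of 0.174, against 0.237 at its RefSeq start. A ratio of at least 0.6 was found for 45.6% of coding genes. Of the 12150 coding genes under 0.6, the first TSS was covered in 20.3%, flanked in 13.1% and bare in 66.7%. Of the 9 cytokine genes under 0.6, it was covered in 2 (Il15 and Il33), flanked in 2 (Il18 and Lif) and bare in 5 (Il1a, Il1b, Il6, Il12a and Tnf). Coding genes with a ratio of at least 0.6 were bare in 11.0%, so that their starts were marked or flanked far more often than CpG-poor ones.

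**Figure D3:**
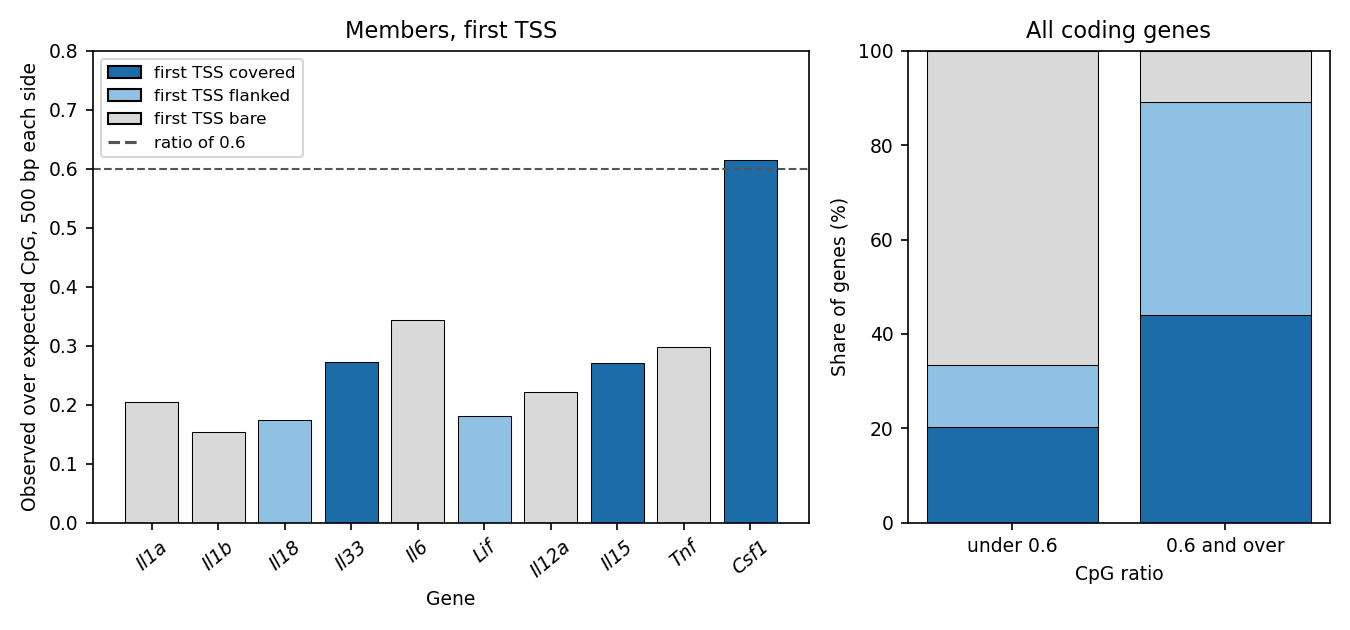
Left, ratio of observed to expected CpG within 500 bp of the first TSS of each cytokine gene, with bars coloured by the H3K4me1 state of that TSS and a dashed line at 0.6; right, share (%) of all protein-coding genes in each state below and above that ratio. Csf1 (0.615) alone passes 0.6, and 66.7% of CpG-poor coding genes are bare against 11.0% of CpG-rich ones.

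Motif matches were then counted in the windows of 270 bases at each first TSS, on both strands, and no matches overlapped within the windows of the 10 genes. Il18 was counted at its GENCODE M1 TSS, the first base of the start codon, where no motif matched. The TATAAA match at its RefSeq start, shown above, is not among the counts. The NF-κB consensus occurred in 3 of the 10, against 8.14% of the 22350 coding promoters. These were Il6 at 91 bases before the TSS (GGGATTTTCC), Csf1 at 154 bases (GGAAAGTCCC) and Lif at 167 bases (GGGACGCCCC). The 3 genes differed in H3K4me1: Csf1 was covered at this TSS, Lif flanked, and Il6 had no region at all. The ISRE consensus was found at Il15 alone, 18 bases before its covered TSS, and in 3.57% of all promoters. The AP-1 motif TGANTCA occurred at Il1a and Lif, against 6.48%, and the C/EBP motif TTGCNNAA at Il6, against 9.67%. The letters TATAAA stood at Il1a, Il1b and Tnf between 29 and 32 bases before the TSS, the usual place of a TATA box, and at Il33 further upstream, against 12.8% of all promoters. Those 3 genes were bare at this TSS and Il33 was covered. Over all coding genes, TATAAA stood in 21.1% of promoters with a bare first TSS, 7.01% of covered and 6.83% of flanked ones. Neither GAS, the interferon gamma activated sequence (TTCNNNGAA, 7.32% of promoters) nor CRE (TGACGTCA, 2.23%) matched in any of the 10 windows. A match is a run of letters only, and its absence says nothing about binding.

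Within the 52 regions the same motifs could be counted over 122.6 kb. The NF-κB consensus occurred 36 times, or 0.294 per kb, against 0.212 per kb in all regions. GAS stood at 0.408 against 0.332 per kb, ISRE at 0.228 against 0.166, TATAAA at 0.783 against 0.749 and AP-1 at 0.367 against 0.366. The C/EBP motif stood lower, at 0.375 against 0.474 per kb, and CRE was found once, at 0.00816 against 0.0107. NF-κB matches were counted 8 times in the regions of Lif, 7 times at Tnf, 6 times at Csf1 and 5 times each at Il15 and Il18, and 0 times at Il12a. These densities carry no error and were not tested, and regions closer to another gene are among them.

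The receptors of these cytokines were marked to differing degrees. Of 17 receptor subunits 9 were covered (52.9%), 2 flanked (11.8%) and 6 bare (35.3%), against 39.1%, 22.9% and 38.0% of all coding genes, so the bare share was near the background. Il1r1, the signalling receptor of both forms of interleukin 1, was covered and had 49.1% of its window under regions. For this and the other listed genes, regions closer to a neighbouring gene were not counted apart, so window shares can include them. Il6ra, the ligand-binding chain for interleukin 6, was covered with 46.2%, although Il6 itself had no region, while Il6st, which encodes gp130, was bare with a region 2385 bp away. Lifr (28.5%), Il15ra (13.9%) and the TNF receptors Tnfrsf1a (18.7%) and Tnfrsf1b (2.0%) were covered. The receptor of IL-33 was split, with Il1rl1 bare at 49015 bp and Il1rap, the co-receptor it shares with Il1r1, covered (1.96%). Of the IL-18 receptor, Il18r1 had no region within 50 kb and Il18rap was flanked at 464 bp from a later TSS. The first TSS of Il18rap was bare, 12594 bp from a region. Csf1r, the receptor of M-CSF, was bare at 8826 bp, and so were Il2rb and Il2rg, the chains through which IL-15 signals in lymphocytes.

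Among 13 genes of cytokine processing and inhibition 6 were covered (46.2%), 5 flanked (38.5%) and 2 bare (15.4%), and the covered share was near the 39.1% of all coding genes, of which 22.9% were flanked and 38.0% bare. The feedback inhibitors Socs3, of STAT signalling, and Nfkbia, of NF-κB, were covered, with 66.2% and 38.2% of their windows under regions, while Socs1, another inhibitor of STAT signalling, was flanked at 372 bp. Zfp36 and Tnfaip3, which act on cytokine mRNAs and on NF-κB signalling, were covered as well, Tnfaip3 at a later TSS only, as was Il18bp, the soluble antagonist of IL-18. Of the inflammasome genes, Gsdmd, which encodes the pore-forming effector, was covered (32.4% of its window), Nlrp3, Pycard and Casp4 were flanked, and Casp1 was bare at 9284 bp. Il1rn, the antagonist of the interleukin 1 receptor, was bare by a narrow margin, with a region 2008 bp from a TSS.

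Of 30 other cytokine genes 9 were covered (30%), 5 flanked (16.7%) and 16 bare (53.3%), against the same 39.1%, 22.9% and 38.0%. Covered were Il7, Il16, Il27, Clcf1, Ctf1, Tnfsf10, Tnfsf13b, Csf3 (40.2% of the window) and Il34, which encodes the other ligand of Csf1r (19.5%). Il16 was covered at a later TSS only, and its first TSS was 48965 bp from a region. Flanked were Il11, Il12b, Il23a, Ltb and Tslp. Among the bare genes were Il2, Il3, Il4, Il5, Il9, Il10, Il13, Il17a, Il21, Il22, Csf2 and Ifnb1. Ifng had no region within 50 kb, the nearest being 116898 bp away. The partner subunits of Il12a were flanked (Il12b, 565 bp) and bare (Ebi3, 3955 bp). No list was tested against the genome.

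**Figure D4:**
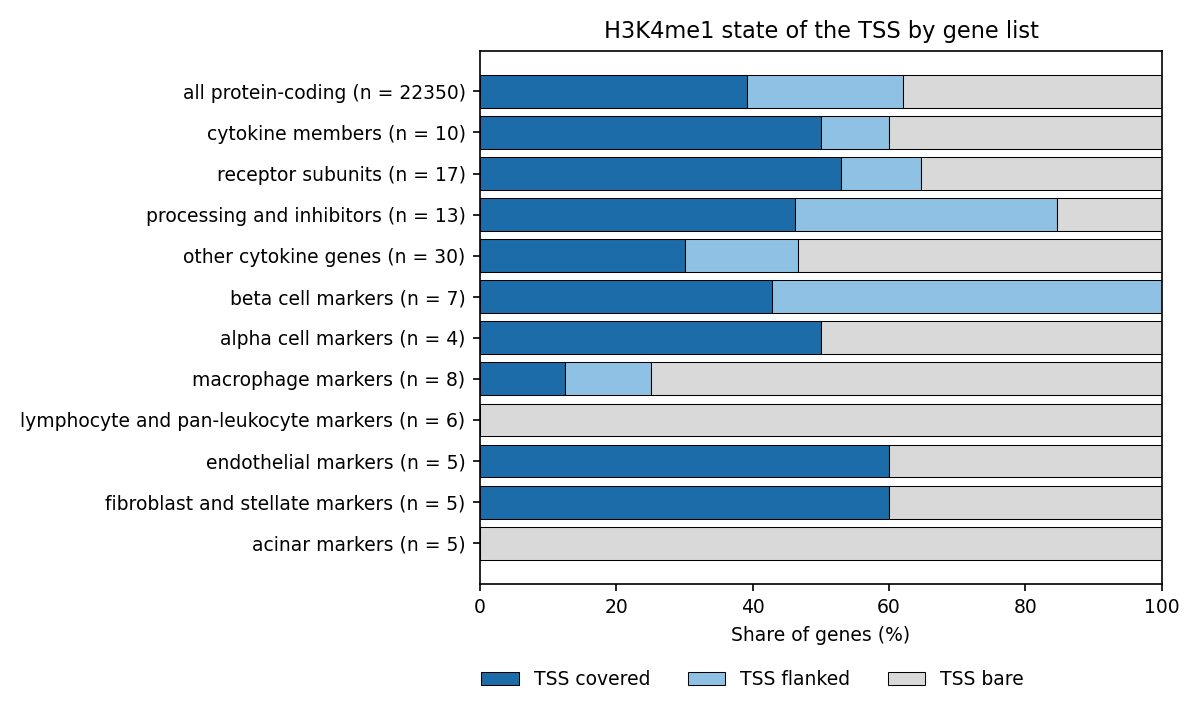
Share of genes (%) with a covered, flanked or bare TSS among all 22350 protein-coding genes, the 10 cytokine genes, their pathway lists and cell type marker lists; n is the number of genes matched. By any TSS, the 7 β-cell markers include 0 bare genes, and all 6 lymphocyte and 5 acinar markers are bare.

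The label of the tissue was set against marker genes. Of 7 β-cell markers 3 were covered, 4 flanked and 0 bare, although Ins2 was bare at its first TSS, 18215 bp from a region. Of 4 α-cell markers 2 were covered. Endothelial and fibroblast markers were covered at 3 of 5 genes each, and at the first TSS alone at 3 and 1, since Col1a1 and Col1a2 were covered only at a later TSS. Macrophage markers were covered at Cd68, flanked at Cd14 and bare at the other 6 of 8, including Csf1r, Itgam and Emr1. Regions covered 23.2% of the window of Cd68, 20.8% of that of Cd14 and between 0 (Itgam and Emr1) and 3.60% (Cx3cr1) at the bare ones. How many of these regions were closer to neighbouring genes was not counted. All 6 lymphocyte and pan-leukocyte markers and all 5 acinar markers were bare. Immune cells and endocrine cells both can express several of the 10 cytokine genes, and the part of each cell type in their H3K4me1 was not tested.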

How the data were processed

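H3K4me1 enriched regions of 1 pooled library of cytokine treated mouse islets were analysed. The authors mapped reads to mm9 with bowtie2 (Bowtie2 2.2.1 in the submitters' processing notes) and called regions with ChromHMM, whose version and settings are not given in the sources used here. They deposited chromosome, start and end of each region. Whether the list precedes their removal of loci under an FPKM limit is not stated.

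From the deposited list, 1 was added to each start, and regions were set against GENCODE M1 genes and the genome of the same build. The 10 genes, their pathway lists and the marker lists were chosen with earlier results of these data known. The text names all 10 genes, coding genes with a TSS under their regions, neighbouring coding genes and genes of the lists. Amy2b, an acinar marker, did not match a protein-coding gene. Motifs were searched by exact letters. RefSeq starts come from promoter sequences of GRCm38.p6, which matched mm9 exactly for 9 of the 10 genes (11 starts); Il15 had none. Words of 32 bp were counted over the whole genome on both strands. The calling of TSS states, the collection of regions and the search for planted NF-κB, GAS and ISRE motifs were tested on simulated data. The other steps were not. As alternatives, regions under 400 or 1000 bp were left out, neighbours up to 1000 bp apart were joined, and other definitions were used: first or protein-coding TSS, flanks of 1 and 5 kb, windows of 20 and 100 kb and assignment to the closest TSS. The RefSeq starts and the closest protein-coding TSS were added after the data had been seen. Python 3.11.15, numpy 2.4.6, pandas 2.3.3, pysam 0.24.0 and matplotlib 3.10.9 were used.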

Additional observations from a re-analysis of the deposited data

How the results depend on the processing

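Of 48 values of the summary results under alternatives, 39 stayed within 1.5 times the reported value and 9 moved. Leaving out regions under 400 bp could change none of these values, since the narrowest region at the 10 genes was 400 bp wide. Joining neighbours also left all of them the same, because none of the 52 regions were close enough to be joined. The unchanged values under these alternatives therefore say nothing about stability. With the first TSS only, 3 genes were covered and 2 flanked, and with a flank of 5 kb 2 were flanked, since Tnf joined Il18. Windows of 20 kb and 100 kb gave 25 and 93 regions and covered 62 and 255.2 kb, against 121.8 kb, by construction. The median number of regions was 9.5 with 100 kb, and 1 when each region within 100 kb counted only for the gene with the closest TSS, against 3.5 with the closest protein-coding TSS within 100 kb, so that window and assignment both differ, a count chosen after the data had been seen. RefSeq starts, also chosen then and placed for 9 genes, with Il15 kept at its GENCODE TSS, gave 4 covered genes (Il15 among them), 1 flanked and 5 bare: Il18 became covered, Lif flanked and Il1b bare. With protein-coding TSS, Il1b was bare as well. Il1a, Il6 and Il12a were bare, and Il33 and Csf1 covered, under every alternative, and Il15 was covered under all but the RefSeq starts, which were not run for it.

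Of the region counts of single genes 65 of 80 stayed within 1.5 times and 15 moved, among them Il6, with 2 regions within 100 kb. The cut at 400 bp and the joining of neighbours again could not change any of these counts. The depth is unknown, and no value was set against it. No paired analysis was possible because only 1 ChIP library was analysed here, and there was no replicate to leave out.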
